A study of Mus musculus with 6 samples.

Results

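The SLC22, SLCO and SLC47 genes encode carriers that move organic cations, organic anions and amphipathic drugs across the plasma membrane. They were taken from the count table as the protein-coding genes whose symbol begins with SLC22A, SLCO or SLC47A and a number. The rule found 37 genes among the 58735 genes of the table, of which 19951 are protein-coding. They were 23 SLC22, 12 SLCO and 2 SLC47 genes. One of the 23, SLC22A18AS, is named as an antisense neighbor of SLC22A18 and entered by its symbol and its protein-coding label alone.

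RNA-Seq covered 6 libraries of 22Rv1, a human prostate cancer cell line. Of these, 3 came from parental cells given vehicle, and the other 3 came from the subline 22Rv1 BL-B01D1_R, which was exposed to rising concentrations of BL-B01D1. BL-B01D1 is a bispecific antibody–drug conjugate against EGFR and HER3 with a topoisomerase I inhibitor as its payload. The subline was a single selection, so the spread between its libraries did not cover a repeated selection, and nothing stated that the libraries of a group were separate cultures. The p-values therefore measured only the spread between these samples. The labels give mouse as the organism, whereas the cell line, the hg38 build and the gene identifiers are human, and the data were read as human.

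Most SLC22 and SLCO proteins take substrates up into cells. SLC22 holds the organic cation transporters (OCTs), the carnitine and zwitterion carriers (OCTNs and relatives), the organic anion transporters (OATs) and several carriers of unsettled function. The SLCO proteins are the organic anion transporting polypeptides (OATPs), which carry bile acids, steroid conjugates, thyroid hormones, prostaglandins and many drugs. The SLC47 proteins, named MATE for multidrug and toxin extrusion, exchange organic cations for protons and work in series with OCTs in kidney and liver. No transport was measured here, and the values below are mRNA levels.

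Library totals ran from 13821639 to 17251491 counts, at which 3 counts equal 0.174 to 0.216 CPM (reads on a gene per 1e6 reads of its library). All 11 markers of luminal prostate cells were tested, and their summed level was 3820 to 3900 CPM in parental and 4260 to 4350 CPM in resistant libraries. Basal, immune and endothelial markers had no library above 5 counts. The 5 stromal markers summed to 112 to 115 CPM in parental and 39.6 to 44.6 CPM in resistant libraries, and the 3 hepatocyte markers to 302 to 316 and 88.7 to 92.7 CPM, with ALB, the plasma protein albumin, as the only hepatocyte marker tested. The 4 neuroendocrine markers summed to 135 to 149 CPM and 110 to 118 CPM. The 3 markers of the kidney proximal tubule summed to 14.1 to 15.2 CPM and 12.6 to 13.9 CPM, a sum that joined a fall of LRP2 and a rise of CUBN. Mitochondrial genes took 4.19% to 4.21% of the counts in parental and 5.1% to 5.35% in resistant libraries. The part of these shifts in the results below was not tested. In bulk RNA, fewer cells expressing a gene and less of its RNA per cell cannot be told apart.

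SLC22A3, the organic cation transporter OCT3 and the member with the highest level in parental cells, was lower in the resistant subline. SLC22A23, an orphan carrier, and SLC47A2, or MATE2, were moderately higher, and SLCO2B1, a carrier of steroid conjugates, rose from a level near the detection limit. SLCO2A1, the prostaglandin transporter, fell at a low level. The OATs and the liver OATPs SLCO1B1, SLCO1B3 and SLCO1B7 had no library above 10 counts in either line. SLCO1B1 had reads in every library, at a level as low as that of SLCO2B1 in parental cells.

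The test was edgeR's quasi-likelihood test on the counts of all genes, with the false discovery rate (FDR) adjusted over the 17142 genes that passed the filter on low counts. A gene was called at the study's thresholds, an FDR under 0.05 and an absolute log2 fold change over 1, and fold changes are resistant over parental. Of the 37 genes, 18 passed the filter, namely 10 SLC22, 6 SLCO and both SLC47 genes. SLCO2B1 passed through its resistant libraries only and SLC22A18AS through its parental libraries only. SLCO2B1 was the 1 gene called higher, beside a background of 2.53% of all genes tested, and SLC22A3, SLCO2A1 and SLC22A18AS were the 3 called lower, beside 2.84%. At an FDR under 0.05 without the fold threshold, 5 members were higher (background 17.1%) and 6 were lower (background 18.4%), and 7 were neither. The resistant libraries lay wholly above the parental ones in 6 members (background 22.1%) and wholly under them in 6 (background 22.8%). The median log2 fold change of the 18 was -0.02, against 0.0038 over all genes tested. Members that passed the filter were not a random draw from the set, and nothing is read from these shares.

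**Figure D1:**
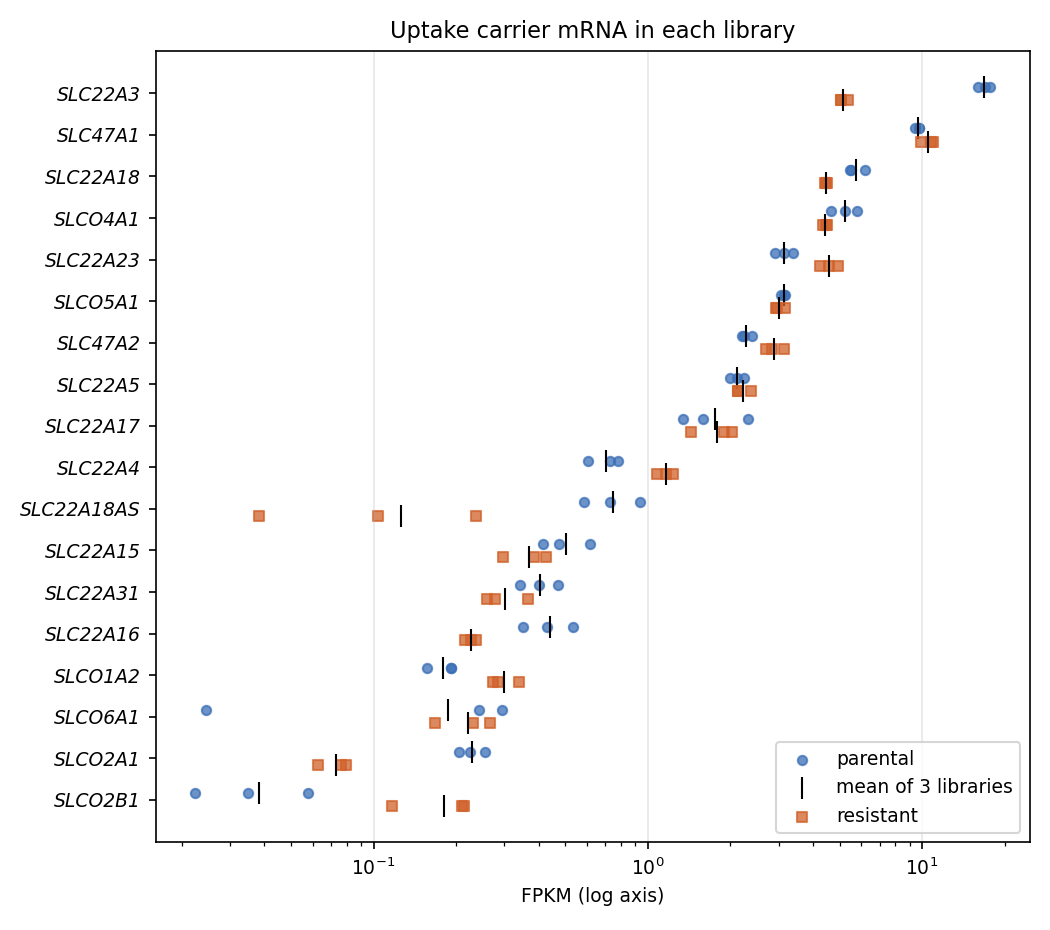
Level of the 18 tested members, SLC22A18AS included, in each library, in FPKM (fragments per kilobase of gene and 1e6 counts) on a log axis. Circles mark the 3 parental and squares the 3 resistant libraries, with a bar for each mean. SLC22A3 moved from a mean of 16.9 to 5.16 FPKM, and SLCO2B1 from 0.0382 to 0.18 FPKM.

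The order of levels between genes is given in FPKM, which divides by gene length. In parental cells SLC22A3 led with a mean of 16.9 ± 0.833 FPKM (SD, n = 3), followed by SLC47A1 with 9.63 ± 0.201. SLC22A18 at 5.72 ± 0.396 and SLCO4A1 at 5.21 ± 0.563 came next, within their spread of each other. In resistant cells SLC47A1 led with 10.6 ± 0.556 FPKM, and SLC22A3 followed with 5.16 ± 0.167 FPKM. SLC22A23 at 4.58 ± 0.349, SLC22A18 at 4.46 ± 0.0522 and SLCO4A1 at 4.44 ± 0.0808 could not be ranked within their spread. By its mean over all 6 libraries, SLC22A3 stood above 74.3% and SLCO2B1 above 18.9% of the 17195 protein-coding genes with a count in at least 1 library.

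SLC22A3 (ENSG00000146477, chr6:160348268-160452581, plus strand) encodes OCT3, a low-affinity, high-capacity carrier of monoamines and other organic cations. Its counts were 1021, 901 and 785 in parental libraries and 282, 249 and 291 in resistant libraries. Every resistant library was far below every parental one. The mean level was 56.5 ± 2.79 CPM in parental and 17.3 ± 0.558 CPM in resistant cells (SD, n = 3). SLC22A3 was 3.26-fold lower, a log2 fold change of -1.71 (SE 0.0693, 95% confidence interval -1.85 to -1.57, edgeR FDR 1.98e-23). Leaving out each library in turn gave -1.74 to -1.67. The related kidney carrier SLC22A2 (OCT2) had no library above 3 counts and was not tested.

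Neither MATE gene was lower in the subline. SLC47A1 (ENSG00000142494, chr17:19495385-19579034, plus strand), which encodes MATE1, had 964, 903 and 771 counts in parental and 1024, 920 and 920 in resistant libraries. Its level was 55.1 ± 1.15 CPM and 60.3 ± 3.18 CPM, with no overlap between groups. The log2 fold change of 0.13 (SE 0.0539, 95% confidence interval 0.02 to 0.24) missed the threshold at an edgeR FDR of 0.0542. It passed at 0.18 with an edgeR FDR of 0.0192 without resistant library 3, and at an edgeR FDR of 0.0452 when only genes with at least 10 counts in every library were tested. SLC47A2 (ENSG00000180638, chr17:19678288-19718979, minus strand), which encodes MATE2, had 277, 251 and 205 counts against 315, 266 and 341. Its CPM groups, 15.3 ± 0.705 and 19.4 ± 1.5, did not overlap, and it rose by 0.34 on the log2 scale (SE 0.0913, edgeR FDR 0.00262).

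Among the 4 carnitine and zwitterion carriers, all of which were tested, 1 rose, 1 fell and 2 did not pass an FDR of 0.05. Over all genes tested, 17.1% were higher and 18.4% lower, and nothing is read from this count. SLC22A5 (ENSG00000197375, chr5:132369752-132395614, plus strand), or OCTN2, the sodium-dependent carnitine transporter, had 441, 454 and 398 counts in parental and 506, 401 and 443 in resistant libraries. The groups overlapped, and its log2 fold change was 0.07 (95% confidence interval -0.08 to 0.22, edgeR FDR 0.513). SLC22A4 (ENSG00000197208, chr5:132294443-132344206, plus strand), or OCTN1, the ergothioneine transporter, lies 25545 bases away and had 28, 33 and 29 counts against 52, 49 and 47. The resistant libraries were all higher, at 3.12 ± 0.218 against 1.89 ± 0.241 CPM. SLC22A4 rose by 0.72 (SE 0.237, edgeR FDR 0.0143), which missed the threshold without parental library 1 (0.62, edgeR FDR 0.0682) and without resistant library 2 (0.68, edgeR FDR 0.0573). MIR3936HG, on the opposite strand across part of SLC22A4, rose by 0.59 (edgeR FDR 0.00299), and whether counting used strand was not given in the sources used here.

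SLC22A16 (ENSG00000004809, chr6:110424687-110476641, minus strand), a carnitine transporter best known from testis, had 29, 23 and 29 counts in parental and 14, 13 and 15 in resistant libraries. The groups did not overlap. Its log2 fold change was -0.94 (SE 0.334, edgeR FDR 0.0249), short of the fold threshold, and that FDR rested on few counts. Of the fits that left out a library, only that without parental library 2 kept an FDR under 0.05 (-1.08, edgeR FDR 0.0224). The other 5 gave -0.97 to -0.78 with an edgeR FDR of up to 0.125. DESeq2 did not pass SLC22A16 either (adjusted p = 0.0733). SLC22A15, a carrier of zwitterions, had 56, 37 and 35 counts against 26, 33 and 33. Its log2 fold change was -0.46 (95% confidence interval -0.97 to 0.05, edgeR FDR 0.164).

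**Figure D2:**
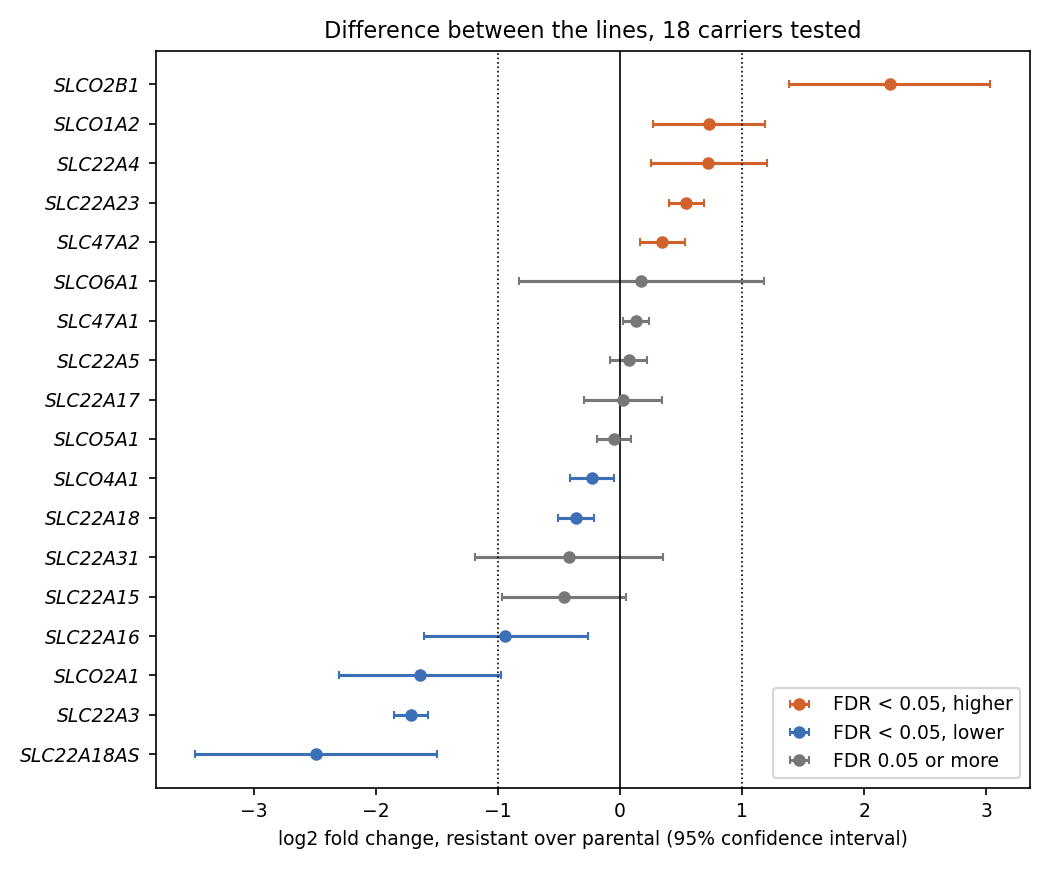
Log2 fold change of the 18 tested members, SLC22A18AS included, resistant over parental, with 95% confidence intervals from edgeR. Orange and blue mark an FDR under 0.05, higher and lower, and grey marks the rest. Dotted lines mark a log2 fold change of 1 and -1. The interval of SLC22A3, -1.85 to -1.57, is narrow, and those of SLC22A18AS, SLCO2A1 and SLCO2B1, which had far fewer counts, are wide.

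The carriers with other or unsettled substrates moved in both directions. SLC22A23 (ENSG00000137266, chr6:3268962-3457022, minus strand), an orphan member, had 519, 436 and 387 counts in parental and 676, 554 and 712 in resistant libraries. All resistant libraries were higher, at 40.8 ± 3.11 against 28.0 ± 2.07 CPM. SLC22A23 was 1.46-fold higher, a log2 fold change of 0.54 (SE 0.0713, edgeR FDR 4.22e-08). PSMG4, which overlaps one end of SLC22A23 on the opposite strand, differed by 0.07 on the log2 scale (edgeR FDR 0.435).

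SLC22A18 (ENSG00000110628, chr11:2899721-2925246, plus strand), an imprinted carrier gene whose substrates are not settled, had 566, 493 and 403 counts against 398, 345 and 385. Its level was 30.4 ± 2.11 CPM in parental and 23.7 ± 0.277 CPM in resistant libraries, with no overlap. SLC22A18 fell by 0.36 on the log2 scale (SE 0.0748, edgeR FDR 1.52e-04). SLC22A18AS (ENSG00000254827, chr11:2887780-2903740, minus strand) shares 4020 bases with SLC22A18 on the opposite strand, so without a stated strand setting their reads cannot be told apart there. SLC22A18AS had 18, 28 and 18 counts in parental and 7, 1 and 3 in resistant libraries. The groups did not overlap, and its log2 fold change was -2.49 (SE 0.491, edgeR FDR 7.06e-05). That value rested on few counts and reached -3.29 without resistant library 1.

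SLC22A17, a receptor for lipocalin-2, had 117, 167 and 80 counts against 144, 119 and 100, and its groups overlapped with a log2 fold change of 0.02 (95% confidence interval -0.3 to 0.34, edgeR FDR 0.951). SLC22A31, another orphan, had 18, 15 and 17 counts against 12, 14 and 11. Its log2 fold change was -0.42 (95% confidence interval -1.19 to 0.35, edgeR FDR 0.425). The interval of SLC22A31 is wide, and a difference of moderate size in that gene was not detectable at this depth. For SLC22A17, smaller differences, within -0.3 to 0.34, were not resolved.

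The first OATP subfamilies held 7 genes, of which 3 were tested. Each of those 3 passed an FDR of 0.05 at a low level, 2 as higher and 1 as lower. The shares over all genes tested were 17.1% and 18.4%. SLCO2B1 entered the test through its resistant libraries only, and nothing is read from this count. SLCO2B1 (ENSG00000137491, chr11:75100563-75206549, plus strand) encodes OATP2B1, an uptake carrier of steroid sulfates and statins. Its counts were 4, 10 and 5 in parental and 20, 32 and 36 in resistant libraries. Even the lowest resistant library held more reads than any parental one. The mean level was 0.396 ± 0.184 CPM in parental and 1.87 ± 0.572 CPM in resistant cells. SLCO2B1 was 4.62-fold higher, a log2 fold change of 2.21 (SE 0.407, 95% confidence interval 1.38 to 3.03, edgeR FDR 2.64e-05). Leaving out each library in turn gave 1.91 to 2.65, and a filter of at least 10 counts in every library removed the gene from the test.

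SLCO2A1 (ENSG00000174640, chr3:133928145-134052184, minus strand) encodes the prostaglandin transporter, which clears prostaglandins by uptake. It had 38, 42 and 28 counts in parental and 13, 11 and 10 in resistant libraries. The groups did not overlap, at 2.24 ± 0.244 and 0.716 ± 0.0884 CPM. SLCO2A1 was 3.12-fold lower, a log2 fold change of -1.64 (SE 0.325, 95% confidence interval -2.3 to -0.98, edgeR FDR 7.98e-05). SLCO1A2 (ENSG00000084453, chr12:21264600-21419594, minus strand) encodes OATP1A2, a carrier of bile acids and steroid conjugates. It had 38, 37 and 25 counts against 65, 48 and 51, with no overlap between the groups. SLCO1A2 rose by 0.73 (SE 0.228, edgeR FDR 0.0105), which missed the threshold without resistant library 1 (0.62, edgeR FDR 0.0705).

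Of the 5 genes in the later OATP subfamilies, 3 were tested. SLCO4A1 (ENSG00000101187, chr20:62642445-62685785, plus strand), which encodes OATP4A1, a carrier of thyroid hormones and prostaglandins, had 403, 316 and 294 counts in parental and 302, 259 and 294 in resistant libraries. On the FPKM scale the groups did not overlap, at 5.21 ± 0.563 and 4.44 ± 0.0808. Its log2 fold change of -0.23 (SE 0.0882, edgeR FDR 0.0361) was lost in 5 of the 6 fits that left out a library, reached -0.15 (edgeR FDR 0.266) without parental library 1, and was kept only without parental library 2 (-0.31, edgeR FDR 0.00884). SLCO4A1 also missed the threshold with DESeq2 (adjusted p = 0.108) and with edgeR on all genes without a filter (FDR 0.0623). SLCO5A1, whose substrates are poorly known, was well covered with 547, 515 and 436 counts against 486, 436 and 512. Its groups overlapped, and its log2 fold change of -0.05 had a 95% confidence interval of -0.19 to 0.09 (edgeR FDR 0.616). SLCO6A1, a testis gene, had 15, 12 and 1 counts against 13, 10 and 8 (log2 fold change 0.17, edgeR FDR 0.825).

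The other 19 genes held too few counts for the test. Of these, 7 were at 0 in all 6 libraries, which allows up to 3 counts or 0.174 to 0.216 CPM per library, for counting error only. They were the renal anion carriers SLC22A6 (OAT1), SLC22A8 (OAT3) and SLC22A11 (OAT4), the further SLC22 genes SLC22A9 and SLC22A24, and SLCO1B3 and SLCO1B7 from the liver OATP cluster. A further 8 had no library above 3 counts, namely SLC22A2, SLC22A7, SLC22A12, SLC22A13, SLC22A14, SLC22A25, SLCO1C1 and SLCO3A1. SLC22A12 is the urate transporter URAT1 and SLCO1C1 the thyroxine carrier of brain vessels. The 4 others reached at most 10 counts. SLCO1B1 (OATP1B1), a liver uptake carrier of statins and of the camptothecin metabolite SN-38, had 5, 4 and 10 counts in parental and 10, 8 and 6 in resistant libraries. SLC22A10 had 3, 3 and 3 against 5, 2 and 4, and SLCO4C1, a kidney OATP, had 2, 2 and 0 against 5, 3 and 3. None of the 10 SLC22 genes listed as organic anion carriers passed the filter.

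**Figure D3:**
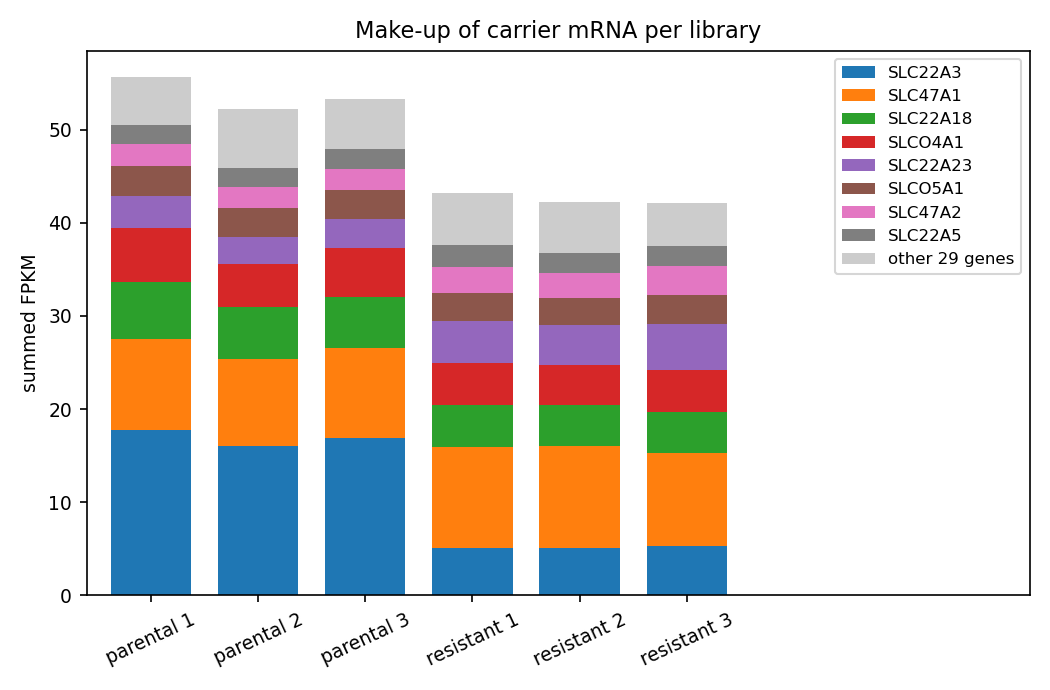
Summed FPKM of the 37 members in each library, stacked by gene, with the 8 highest genes in color and the other 29 in grey. The sum was 52.2 to 55.7 in parental and 42.1 to 43.2 in resistant libraries, and the SLC22A3 segment is the one that shrank most.

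The make-up of the set differed between the lines. FPKM summed over the 37 genes was 55.7, 52.2 and 53.3 in parental libraries and 43.2, 42.2 and 42.1 in resistant libraries. Every resistant library lay below every parental one. SLC22A3 took 31.4% ± 0.587 of the sum in parental and 12.2% ± 0.494 in resistant cells (SD, n = 3). SLC47A1 took 17.9% ± 0.331 and 24.8% ± 1.22, and SLC22A23 took 5.85% ± 0.244 and 10.8% ± 0.845. By family, SLC22 went from 60.7% to 48.3%, SLC47 from 22.2% to 31.6% and SLCO from 17.1% to 20%. These are shares of one sum, so a fall in SLC22A3 raises the shares of the others. The members' reads were between 0.0281% and 0.0297% of all counts in parental and between 0.0255% and 0.0262% in resistant libraries.

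Genes that make, move or use the same substrates were then counted, beside the 17.1% of all genes tested that were higher and the 18.4% that were lower at an edgeR FDR under 0.05. Nothing is read from the share of a list that passed. In the carnitine pathway, 10 of 11 listed genes were tested, 2 were higher and 0 lower at an edgeR FDR under 0.05, and the median log2 fold change was 0.01. CROT, the peroxisomal carnitine octanoyltransferase, was called, with 323, 314 and 263 counts in parental and 1095, 861 and 946 in resistant libraries (log2 fold change 1.70, edgeR FDR 1.64e-23). SLC25A20, the mitochondrial carnitine-acylcarnitine carrier, rose by 0.32 (edgeR FDR 0.0045). Among prostaglandin genes, 13 of 18 were tested, 3 were higher and 1 was lower, with a median of -0.04. PTGER4, the prostaglandin E2 receptor EP4, was called at 1.27 (142, 140 and 107 counts against 332, 291 and 305, edgeR FDR 1.74e-13). HPGD, which inactivates prostaglandins after their uptake, rose by 0.88 (edgeR FDR 7.03e-20), PTGES2 rose by 0.24 (edgeR FDR 3.26e-06), and CBR1 fell by 0.23 (edgeR FDR 0.0212), while 0 genes of this list were lower without parental library 2 or without resistant library 1.

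Of 11 genes that handle steroid sulfates and iodothyronines, 7 were tested and 0 passed in either direction, with a median of 0.08. Of 26 other uptake carriers, for nucleosides, folate, thiamine, peptides and bile acids, 14 were tested, 1 was higher (17.1% of all genes tested) and 5 were lower (18.4%), with a median of -0.12. The log2 fold change of the thiamine transporter SLC19A2 was -0.52 (edgeR FDR 2.38e-09), that of the nucleoside transporter SLC29A1 (ENT1) was -0.27 (edgeR FDR 1.59e-07) and that of SLC10A7 was -0.40 (edgeR FDR 3.23e-04). The peptide transporter SLC15A2 (PEPT2) rose by 0.82 (edgeR FDR 0.0054). No gene of this list was called at the fold threshold.

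Transcription factors and scaffold proteins known for these carriers formed the last list. Of 19, 13 were tested, 1 was higher (17.1% of all genes tested) and 5 were lower (18.4%) at an edgeR FDR under 0.05, with a median of -0.15. FOXA1, the pioneer factor of luminal prostate cells, fell by 0.17 (edgeR FDR 4.32e-06), GRIP1, a PDZ scaffold, fell by 0.88 (edgeR FDR 1.33e-05), and SLC9A3R2, the scaffold NHERF2, fell by 0.23 (edgeR FDR 0.0018). With parental library 1 or parental library 2 left out, the list held 2 higher and 4 lower genes.

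**Figure D4:**
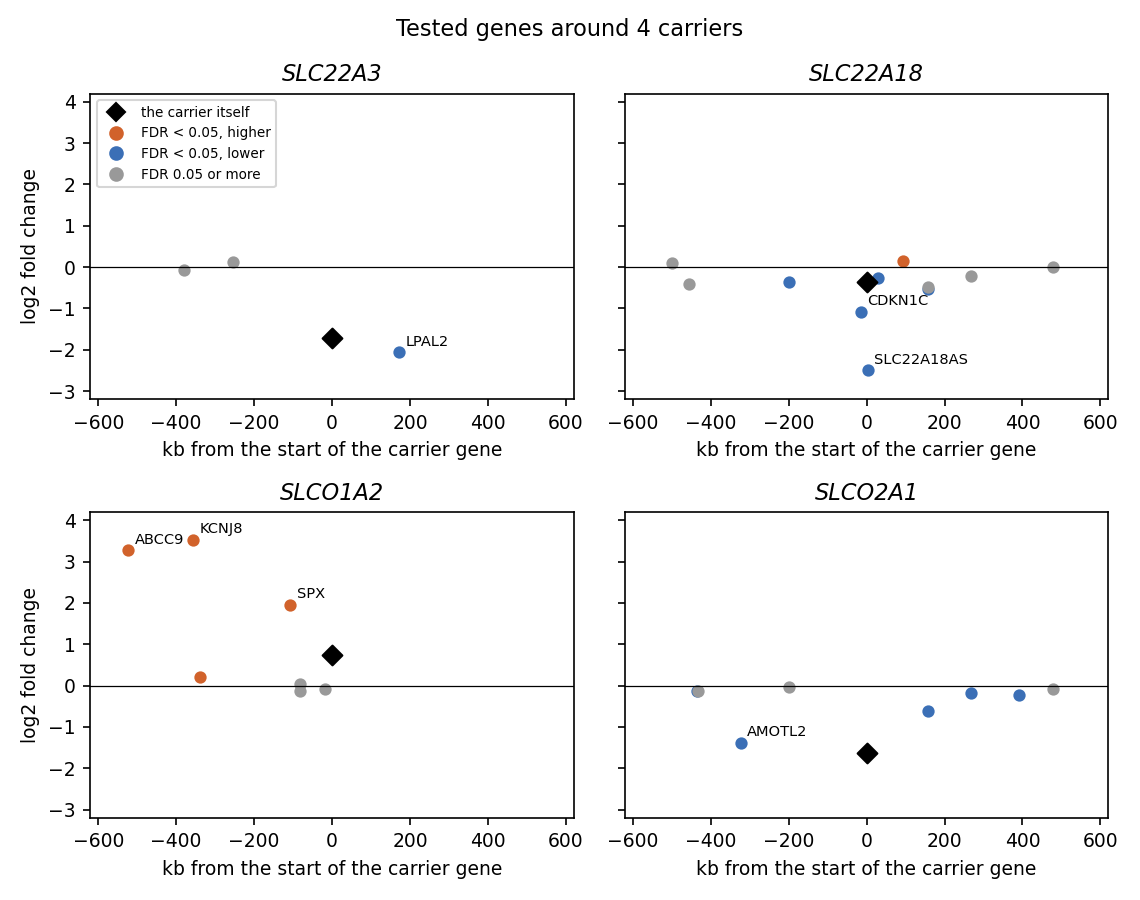
Log2 fold change of the tested genes around SLC22A3, SLC22A18, SLCO1A2 and SLCO2A1, against the distance in kb of each gene's start from the start of the carrier, with negative values upstream. Black diamonds are the carriers, orange and blue points passed an FDR of 0.05 as higher and lower, grey points did not, and genes called are labeled.

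Genes within 500 kb of the carriers that passed were described last. The loci and neighbors described in detail were chosen after their values were seen. The shares over all genes are given beside the counts as a description. Around SLC22A3, 3 genes were tested and 1 was called lower, beside 2.84% of all genes tested. LPAL2, a transcribed pseudogene on the opposite strand that ends 846 bases from the end of SLC22A3, had 45, 44 and 33 counts in parental and 5, 5 and 19 in resistant libraries (log2 fold change -2.05, edgeR FDR 1.3e-05). LPAL2 had too few resistant counts to pass the filter without its parental libraries, and nothing is read from this count. On the other side of SLC22A3, IGF2R had a value of -0.06 (edgeR FDR 0.204). Around SLC22A18, 11 genes were tested, 1 was higher (17.1% of all genes tested) and 5 were lower (18.4%) at an edgeR FDR under 0.05. Of these, 2 were called lower (2.84% of all genes tested), namely the member SLC22A18AS, described above, and CDKN1C. CDKN1C, an imprinted cell cycle inhibitor, was called at -1.08 (177, 200 and 155 counts against 100, 79 and 70, edgeR FDR 2.33e-08). The imprinted PHLDA2 had -0.26 (edgeR FDR 3.91e-07), CARS had -0.53 (edgeR FDR 1.46e-11) and KCNQ1OT1 had -0.37 (edgeR FDR 0.00958). NAP1L4 was the gene that rose (0.14, edgeR FDR 7.66e-04), and KCNQ1 did not pass (-0.41, edgeR FDR 0.297).

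Around SLCO1A2, 7 genes were tested and 3 were called higher, beside 2.53% of all genes tested. KCNJ8, a pore subunit of ATP-sensitive potassium channels, had 13, 16 and 8 counts in parental and 158, 143 and 125 in resistant libraries (log2 fold change 3.53, edgeR FDR 5.37e-17). ABCC9, which encodes the regulatory subunit of the same channels, had 4, 3 and 0 against 27, 26 and 17 (3.28, edgeR FDR 3.15e-06). SPX, a neuropeptide gene, had 1, 13 and 8 against 32, 28 and 26 (1.96, edgeR FDR 2.41e-04). Each of these 3 genes had too few parental counts to pass the filter without its resistant libraries, and nothing is read from their count. Around SLCO2A1, 5 of 8 tested genes were lower at an edgeR FDR under 0.05 (18.4% of all genes tested), and AMOTL2, a regulator of Hippo signaling, was called at -1.38 (edgeR FDR 7.25e-10). Around SLCO2B1, 15 genes were tested and 0 were called by edgeR. At an FDR under 0.05, 1 was higher (17.1% of all genes tested) and 4 were lower (18.4%). No called neighbor accompanied SLCO2B1. Nor was any neighbor called around SLC22A23, SLC47A2, SLC22A4, SLCO4A1 or SLC22A16, with 15, 15, 17, 24 and 5 genes tested. Over all genes tested, 2.53% were called higher and 2.84% lower.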

How the data were processed

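RNA-Seq was read from 1 table of raw counts per gene, deposited by the authors with gene name, position, biotype and gene length in bases (another quantity of the same deposited table, used here to compute FPKM). Reads were cleaned with fastp, mapped to hg38 with HISAT2 2.0.5 and counted with featureCounts 1.5.0-p3, per the submitters' processing notes. The annotation release and strand setting were not given in the sources used here. Table columns were matched to samples by group and replicate number, and 0 columns of per-sample values were left unused. No human sequence was used here.

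From the counts, genes were filtered with filterByExpr, scaled with TMM and tested by quasi-likelihood in edgeR (version 4.0.16, under R 4.3.3) on 3 parental and 3 resistant libraries, with Benjamini-Hochberg adjustment over 17142 genes. CPM and FPKM used TMM-adjusted library sizes. The SE is the log2 fold change divided by the square root of F. Replicate pairs differed by more than sampling noise (chi-square per degree of freedom 1.77 to 2.45), so all 6 libraries were counted. The smallest exact two-sided permutation p for 3 against 3 is 0.1, so single values such as summed FPKM were given without a test. The biological coefficient of variation was 3.51%. Scripts were tested on simulated data.

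The members, lists and tests were chosen with earlier results of these data known. Some genes that the rules select are not reported here. Named in full were members with an FDR under 0.05 and the 5 with the highest mean FPKM. From each list, up to 4 genes with the smallest p at an FDR under 0.05 and every gene called were named. Alternatives were RLE size factors, library size alone, a minimum of 10 counts in each of the libraries, no filter, limma-voom (limma 3.58.1, the tool the methods name), DESeq2 (1.42.0), glmTreat, the replicate number as a block, and each library left out in turn.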

Additional observations from a re-analysis of the deposited data

How the results depend on the processing

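Over 12 members and all settings run, 0 of 166 log2 fold changes reversed, 140 stayed on the same side of the threshold, 24 lost and 2 gained it. SLC22A3 passed in all of them. A filter of at least 10 counts in every library tested 15 members and lowered the calls over all genes to 248 higher and 287 lower, with 0 members called higher (by edgeR), since SLCO2B1 and SLC22A18AS were not tested there. glmTreat, which tests against a log2 fold change of 1 and so drops small changes by construction, gave 178 higher and 144 lower genes, and among members 1 higher and 2 lower at an FDR under 0.05. It did not call SLCO2A1 (FDR 0.303).

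Leaving out each library in turn gave 415 to 450 genes called higher and 471 to 493 lower, 1 to 1 members called higher and 3 to 4 lower, and 4 to 6 members higher and 4 to 6 lower at an FDR under 0.05. Same-numbered libraries did not deviate together (correlations of -0.008, -0.02 and -0.016), so no effect shared by replicate number was seen. Whether same-numbered libraries were prepared together cannot be told from this. Adding a replicate block to the fit left 418 calls higher and 471 lower over all genes, with 1 member called higher and 3 lower, and 5 and 6 passed an FDR of 0.05. No member changed its call under the block. Depth limits what can be seen of the 19 untested genes.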

Other observations

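Under the symbol rule, 4 genes were left out because they are not labeled protein-coding. SLC22A20P, a pseudogene of the organic anion branch, had 3, 8 and 10 counts in parental and 16, 18 and 13 in resistant libraries, and its log2 fold change of 1.15 passed the thresholds at an edgeR FDR of 0.0456. The SLC47A1 pseudogenes did not pass, with 69, 70 and 47 counts against 56, 53 and 59 for SLC47A1P2 (log2 fold change -0.13, edgeR FDR 0.65) and 5, 8 and 10 against 22, 11 and 11 for SLC47A1P1 (0.92, edgeR FDR 0.112). How reads shared between SLC47A1 and these copies were counted was not given in the sources used here. SLCO4A1-AS1 had 10, 1 and 3 counts against 2, 3 and 8 and was not tested.

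ALB, a marker of hepatocytes, was lower in the resistant subline, with 5448, 5061 and 4342 counts in parental and 1519, 1355 and 1430 in resistant libraries (log2 fold change -1.77, edgeR FDR 6.78e-35). The stromal marker LUM, the matrix proteoglycan lumican, had 1712, 1571 and 1322 against 431, 441 and 492 (-1.74, edgeR FDR 1.11e-26). Of the 4 stromal markers tested, 2 were lower at an edgeR FDR under 0.05, LUM and, by far less, COL1A1 (-0.28, edgeR FDR 0.0348). DCN (-0.46, edgeR FDR 0.286) and COL3A1 (0.27, edgeR FDR 0.685) did not pass. CHGA, the neuroendocrine granule protein chromogranin A, had 684, 633 and 567 against 131, 116 and 142 (-2.26, edgeR FDR 2.49e-24). SYP, the other neuroendocrine marker tested, did not pass (0.04, edgeR FDR 0.531). The fall of CHGA and LUM was thus not shared by all tested markers of their lists. Among the proximal tubule markers, LRP2 was lower (-1.21, edgeR FDR 1.17e-08) and CUBN was higher (0.88, edgeR FDR 2.83e-06). SLC34A1 was not tested. The part of ALB, LUM, CHGA, LRP2 and CUBN in the results above was not tested.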
